A study of Mus musculus with 29 samples.

Results

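Mg2 is one of 8 subtypes of microglia in the authors' annotation of a mouse stroke data set, and its cells were taken as the brain cells whose deposited parent code was Mg and whose subtype code was Mg2. This gave 5567 cells of 24707 microglia and of 55268 brain cells. The whole data set, blood included, held 106977 cells. The other subtypes were Mg1 (8519 cells), Mg3 (5118), Mg4 (1822), Mg5 (1420), Mg6 (1394), Mg8 (523) and Mg7 (344).

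Microglia are the resident macrophages of the brain parenchyma. They survey the tissue, and after ischaemia they leave their resting programme, which is marked by genes such as Cx3cr1, P2ry12 and Tmem119, and take up phagocytic, lipid-handling and inflammatory programmes. Immediate early genes, which include the Fos, Jun and Egr families of transcription factors, are transcribed within minutes of a stimulus without new protein synthesis, and the isolation of microglia from tissue is itself known to be such a stimulus.

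The cells came from C57BL/6J mice that had either a stroke, made by blocking the middle cerebral artery for a time and letting blood return, or a sham operation. Males of 8 to 10 weeks, called young here, gave 4 sham libraries (day 2), 4 stroke libraries from day 2 and 4 from day 14. Mice of 17 to 20 months, called aged, gave 2 sham libraries (day 2), of which 1 was male and 1 female, 3 stroke libraries from day 2, of which 1 was male and 2 female, and 1 female stroke library from day 14. Each brain library pooled 4 to 5 hemispheres, and every hemisphere was digested with papain in the presence of actinomycin D, an inhibitor of transcription, before myeloid cells with intermediate or high CD45 and Ly6c-high endothelial cells were sorted. All groups shared this isolation. Sham was sampled on day 2 alone, and the day 14 comparison with sham therefore also differs in the time since surgery. A library is the replicate throughout, and pooling leaves the variation between single mice unseen.

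The 12 young libraries held a median of 321 to 1363 counts per cell, and their Mg2 cells a median of 252 to 1022. They fell into 2 sets by the percent of mitochondrial counts, with library medians of 0.235% to 0.559% in 5 libraries (sham replicate 1, day 2 replicates 1 and 2, day 14 replicates 1 and 2) and 1.67% to 3.38% in the other 7. Each young group had libraries in both sets. No cell barcode with its library prefix occurred more than once, and no Mg2 barcode sequence was shared by a pair of libraries.

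The label was checked against marker genes. Cx3cr1, the fractalkine receptor of microglia, was present in the Mg2 cells of every library except day 2 replicate 3, which held 1 Mg2 cell and no Cx3cr1 count. With the summed Mg2 counts of a library scaled to a common total (CPM, as in every level below), it stood at 4806, 2845, 3556 and 3746 in the 4 young sham libraries. It stood at 3410.5 and 2769 in the 2 young day 2 libraries with at least 20 Mg2 cells, and at 3319 in the 1 day 14 library of that size. A list of 8 microglial markers summed to 18882 to 26788 CPM in young sham and 19685 to 29116 CPM in young stroke Mg2 cells. The lists of other cell types were far below it. Those given here also had 8 genes each, though only 7 of the astrocyte list were among the genes of the young libraries. The monocyte list (Ly6c2, Ccr2 and others) summed to at most 15.01 CPM in sham and 59.0 CPM in stroke, the T and NK cell list to at most 4.80 CPM, the endothelial list to at most 44.4 CPM in sham and 6.24 CPM in stroke, and the border macrophage list (Mrc1, Pf4 and others) to at most 44.0 CPM in sham and 118 CPM in stroke. The neutrophil list reached 611 CPM in sham and 588 CPM in stroke, the B cell list 343 and 674 CPM, and the astrocyte list 234 and 341 CPM. In sham, 1 gene made up most of each of these 3 sums, with means of 274 CPM for Csf3r, 221 CPM for Ighm and 211 CPM for Slc1a3. Among the other genes of the neutrophil list, S100a8 averaged 11.9 ± 23.8 CPM and Retnlg 2.67 ± 5.35 CPM (SD, n = 4), and Ly6g and Cxcr2 were at 0.0 CPM. Of the B cell list, Cd79b averaged 19.8 ± 8.38 CPM, and Cd79a and Ms4a1 were at 0.0 CPM. Of the astrocyte list, Aldoc averaged 2.70 ± 1.36 CPM and Gfap was at 0.0 CPM. The part of other cell types in the Mg2 levels was not tested.

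The genes highest in Mg2 relative to all other microglia pooled were immediate early and stress genes. Because the authors' subtypes were made from these same cells and genes, the following levels describe the cluster and carry no test. Over the 7 young libraries with at least 20 Mg2 cells, the 15 genes with the highest median log2 ratio of Mg2 to all other microglia were Egr1 (2.52), Fos (2.49), Klf2 (2.47), Fosb (2.22), Dusp1 (2.22), Btg2 (2.11), Atf3 (2.09), Sertad1 (1.94), Dnajb1 (1.94), Cited2 (1.92), Jun (1.84), Hspa1a (1.83), Junb (1.82), Jund (1.76) and Zfp36 (1.75). Only genes with the same sign in every library were ranked, so that all 15 were higher in Mg2 in each of the 7 libraries follows from the selection. The ratio was counted for 3756 genes whose average level in Mg2 reached 50 CPM. Of these, 47 (1.25%) had a median ratio of at least 1 on the log2 scale and were higher in every library. The number lower by as much in every library was 0 (0.0%). Because the limit was set in Mg2, a gene high elsewhere but below the limit in Mg2 was not counted. The contrast of 47 with 0 is therefore partly set by the limit.

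Most of these genes encode transcription factors or fast-acting repressors. Fos, Fosb, Jun, Junb and Jund are the subunits of the AP-1 factor, Egr1 and Klf2 are zinc finger transcription factors, and Atf3 is a stress-induced member of the ATF and CREB family. Dusp1 is a phosphatase that switches off MAP kinases, Zfp36 destabilises AU-rich cytokine mRNAs, and Btg2 is an antiproliferative co-regulator. Dnajb1 and Hspa1a are an HSP40 co-chaperone and an inducible HSP70 of the heat shock response.

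The promoters of these genes are shown because the genes were high in the same cells. RefSeq windows of build GRCm38.p6, from 250 bases before to 50 after a gene's start, were matched by symbol for 14 of the 15 genes, which gave 15 windows since Dnajb1 has 2. Egr1 was not matched. The cyclic AMP response element TGACGTCA was found in 2 of 15 windows (Dusp1 and Btg2) and in 1.79% of all 32851 windows of this length. The heat shock element GAANNTTC was found in 2 of 15 (Jun and Hspa1a) and in 7.86% of all windows. The CArG box, at which serum response factor binds, was found in 1 of 15 (Zfp36) and in 1.63% of all windows. The AP-1 site TGANTCA was found in 0 of 15 and in 7.81% of all windows. Each pattern is its own reverse complement, so 1 search covered both strands, and no window held more than 1 match. A match describes letters in a window and is not evidence of binding. The 4 windows below carry the cyclic AMP response element (Dusp1 at chr17:26508423-26508722 and Btg2 at chr1:134079106-134079405) or the heat shock element (Jun at chr4:95052173-95052472 and Hspa1a at chr17:34972107-34972406). All lie on the minus strand and are written 5′ to 3′ along the gene, with the matched element in capitals.
Dusp1: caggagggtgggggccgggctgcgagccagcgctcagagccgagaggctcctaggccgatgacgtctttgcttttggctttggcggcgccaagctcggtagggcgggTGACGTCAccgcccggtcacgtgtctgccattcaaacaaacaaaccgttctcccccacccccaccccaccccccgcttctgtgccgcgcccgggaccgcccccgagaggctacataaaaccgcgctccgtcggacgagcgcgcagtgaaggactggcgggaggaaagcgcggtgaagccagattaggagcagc
Btg2: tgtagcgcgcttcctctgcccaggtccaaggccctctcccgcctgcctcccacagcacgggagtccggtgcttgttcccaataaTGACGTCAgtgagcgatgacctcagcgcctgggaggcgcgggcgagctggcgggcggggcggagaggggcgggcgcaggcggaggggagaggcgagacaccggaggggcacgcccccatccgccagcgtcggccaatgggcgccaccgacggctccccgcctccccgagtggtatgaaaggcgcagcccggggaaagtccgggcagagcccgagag
Jun: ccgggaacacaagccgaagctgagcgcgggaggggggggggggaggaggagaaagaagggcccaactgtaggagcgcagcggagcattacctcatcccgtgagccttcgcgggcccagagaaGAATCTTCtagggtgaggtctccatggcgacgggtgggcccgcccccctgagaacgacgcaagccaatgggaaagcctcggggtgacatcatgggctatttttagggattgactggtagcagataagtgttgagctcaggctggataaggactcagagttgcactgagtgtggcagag
Hspa1a: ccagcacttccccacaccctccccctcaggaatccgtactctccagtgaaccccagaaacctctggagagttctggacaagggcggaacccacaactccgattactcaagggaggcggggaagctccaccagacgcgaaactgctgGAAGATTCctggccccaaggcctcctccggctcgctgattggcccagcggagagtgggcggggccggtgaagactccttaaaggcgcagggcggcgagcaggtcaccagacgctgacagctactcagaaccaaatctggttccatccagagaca

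The levels by library were as follows, with the larger subtype Mg1 from the same sham libraries beside Mg2. Egr1 stood at 752, 1529, 2124 and 542 CPM in the Mg2 cells of sham replicates 1 to 4, and at 71.2, 129, 387 and 65.2 CPM in their Mg1 cells. Fos stood at 1321, 3103, 4220.3 and 890.3 CPM in Mg2, and at 116, 419.9, 797 and 119.7 CPM in Mg1. For both genes the lowest Mg2 library was above the highest Mg1 library, and libraries 2 and 3 were high in both subtypes. Atf3 stood at 527, 1266, 2119.6 and 485 CPM in Mg2 against 42.8, 123, 234 and 36.7 CPM in Mg1. Jun stood at 3441, 6499, 8681 and 3018 CPM in Mg2 against 572, 1833, 2857 and 824 CPM in Mg1. Atf3 and Jun kept the same order of libraries, with replicates 2 and 3 above 1 and 4, so the libraries differed from each other in both subtypes as well as the subtypes within a library.

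Dusp1 was at 706, 767, 895 and 266 CPM in Mg2 and at 83.6, 153, 181 and 35.8 CPM in Mg1 of the same libraries. Btg2 was at 1571, 1588, 1806 and 727 CPM in Mg2 and at 274, 405, 492 and 156 CPM in Mg1. Klf2 was at 411, 407, 904 and 215 CPM in Mg2 and at 37.5, 42.6, 155 and 27.6 CPM in Mg1. Sham replicate 4 had the lowest Mg2 level of all 3 genes, yet that level was above every Mg1 library. Dnajb1 was at 295, 356, 273 and 259 CPM in Mg2 and at 62.8, 93.3, 88.3 and 51.8 CPM in Mg1. Hspa1a was at 228, 116, 67.5 and 83.9 CPM in Mg2 and at 50.2, 46.7, 44.3 and 17.4 CPM in Mg1. The 2 chaperones did not share the order of libraries seen for Egr1 and Fos.

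**Figure D1:**
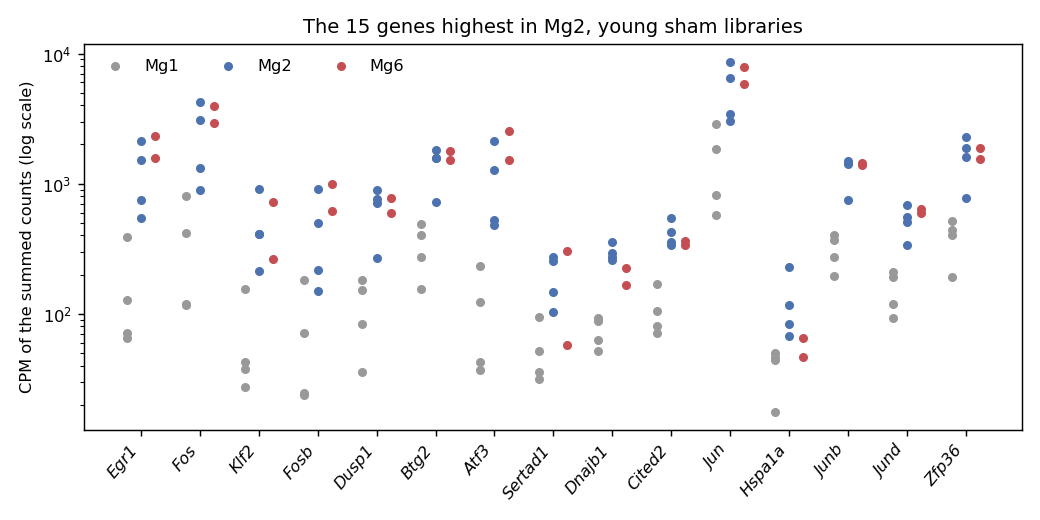
The 15 genes highest in Mg2 are plotted on a log axis as CPM of the summed counts, with 1 point per young sham library and subtype. In each library the Mg2 point lies above the Mg1 point, and the Mg6 points (2 libraries with at least 20 cells) mostly lie within or near the Mg2 range, except for Dnajb1 and Hspa1a, whose Mg6 points lie below it.

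The 3 stroke libraries with at least 20 Mg2 cells held Egr1, Fos and Jun at levels within the sham range. In Mg2 cells of day 2 replicate 1, day 2 replicate 4 and day 14 replicate 4, Egr1 stood at 887, 1121 and 1519 CPM. Fos stood at 1031, 3237 and 2339.8 CPM in the same 3 libraries, and Jun at 3035, 5034 and 6452 CPM. Mg1 cells of these libraries held Egr1 at 71.9, 123 and 133 CPM, so the gap between the subtypes was present after stroke as well. The subtype labels were made from these same genes, so a kept level or gap describes the label and is no test.

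The genes lowest in Mg2, ranked among those that reached 50 CPM there and were lower in every library, had smaller ratios. Genes nearly absent from Mg2 were left out by that limit, so the sizes of the highest and lowest ratios cannot be compared. The 10 lowest median log2 ratios were those of Bst2 (-0.93), Cops9 (-0.90), Elob (-0.80), Sec61b (-0.80), Atp5e (-0.78), Atp5mpl (-0.77), Sf3b5 (-0.72), Ndufc1 (-0.71), Ndufs6 (-0.70) and Cd63 (-0.68). Atp5e and Atp5mpl are parts of the mitochondrial ATP synthase, Ndufc1 and Ndufs6 of respiratory complex I, and Sec61b of the translocon of the endoplasmic reticulum, while Bst2 is an interferon-induced restriction factor and Cd63 a tetraspanin of late endosomes. Sec61b stood at 169, 159, 115 and 127 CPM in Mg2 of the sham libraries and at 199.9, 213, 221 and 203 CPM in Mg1. Those 2 sets of values do not overlap.

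Whole gene lists placed Mg2 beside Mg1 in the 4 young sham libraries. Of all 8966 genes that averaged 10 CPM or more in either subtype, 1030 (11.5%) were higher in Mg2 in 4 of 4 libraries and 966 (10.8%) were higher in none. Of the 19 immediate early genes at that level, 19 were higher in 4 of 4, with a median ratio of 4.29. The lists were chosen with earlier results of these data known, and the immediate early list shares genes such as Fos, Jun and Egr1 with the markers above. This count therefore describes the cluster and is no independent support. The list's summed level in Mg2 was 17461, 23481, 31329.5 and 10635 CPM in sham replicates 1 to 4, and 3759, 5682, 8318 and 2894 CPM in Mg1. The ratio of these sums ran from 3.67 to 4.65 over the 4 libraries, while the sums themselves varied more widely. Over all 7 young libraries it ran from 3.67 to 5.96.

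Genes that NF-kB is known to induce were the next most shifted list. Of 12 at the level limit, 10 were higher in Mg2 in 4 of 4 sham libraries, with a median ratio of 3.08. Nfkbia, the inhibitor that NF-kB itself induces, averaged 2181 ± 693 CPM in Mg2 and 622 ± 305 CPM in Mg1 (SD, n = 4). Nfkbiz, a nuclear regulator of secondary response genes, averaged 1253 ± 994 CPM and 226 ± 220 CPM. Cd83, an activation antigen, averaged 401 ± 225 CPM and 86.8 ± 33.7 CPM. Among the cytokines, Tnf averaged 88.8 ± 36.4 CPM in Mg2 against 19.7 ± 8.60 CPM in Mg1, and Il1a 215 ± 54.3 CPM against 65.01 ± 18.002 CPM. Il1b was higher in 3 of 4 libraries only, at 26.6 ± 31.7 CPM against 12.2 ± 14.1 CPM.

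Of 8 chemokines, 5 were higher in Mg2 in 4 of 4 libraries (Ccl2, Ccl3, Ccl4, Ccl12 and Cxcl16). Ccl3 averaged 879.7 ± 364 CPM in Mg2 and 278 ± 112 CPM in Mg1, and Ccl4 1181 ± 599 CPM and 347 ± 162 CPM. Both are inflammatory chemokines that attract leukocytes. Ccl12 averaged 192 ± 16.5 CPM and 98.5 ± 12.5 CPM, whereas Ccl9, at 122 ± 34.8 CPM and 120.05 ± 35.4 CPM, was alike in both subtypes within its spread.

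Of 11 heat shock genes, 7 were higher in 4 of 4 libraries, with a median ratio of 1.68. Hspa5, the chaperone of the endoplasmic reticulum, averaged 2602 ± 558 CPM in Mg2 and 1493 ± 310 CPM in Mg1, and Hspa8, the constitutive cytosolic HSP70, 1584 ± 89.3 CPM and 969 ± 42.2 CPM. The mitochondrial chaperones differed less. Hspe1 averaged 198 ± 44.3 CPM and 194 ± 41.8 CPM and was higher in 2 of 4 libraries. Of 8 glucocorticoid-responsive genes, 5 were higher in 4 of 4, among them Sgk1, a kinase, at 596 ± 153 CPM against 261 ± 88.8 CPM, and Per1, a clock gene, at 75.6 ± 23.0 CPM against 25.9 ± 10.9 CPM. Fkbp5, a co-chaperone of the glucocorticoid receptor, averaged 154 ± 50.7 CPM and 161 ± 40.0 CPM and was higher in 2 of 4.

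Microglial identity genes went the other way by a small margin. Of 16 homeostatic genes, 0 were higher in Mg2 in 4 of 4 sham libraries and 8 were lower in every one, with a median ratio of 0.936. Cx3cr1 averaged 3738 ± 811 CPM in Mg2 and 3942 ± 797 CPM in Mg1, and P2ry12, a purinergic receptor that steers processes to damage, 3346 ± 143 CPM and 3570 ± 253 CPM. Sparc, a matrix glycoprotein, averaged 3147 ± 110 CPM and 3906 ± 272 CPM. Of 13 transcription factors of the microglial lineage, 4 were higher in 4 of 4, among them Spi1 and Cebpb. Cebpb, a factor of inflammatory gene control, averaged 249 ± 98.6 CPM in Mg2 and 109.7 ± 37.8 CPM in Mg1, and Spi1, the PU.1 factor that myeloid cells require, 368 ± 58.8 CPM and 326 ± 94.1 CPM. Of the 3 cell cycle genes that were higher in 4 of 4, Hmgb2, a chromatin protein, averaged 370.5 ± 122 CPM and 119.7 ± 36.8 CPM, but Mki67, which marks dividing cells, had no count in Mg2 of any sham library.

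Beside these differences, Mg2 cells held more counts than Mg1 cells in the sham libraries. The median was 699 against 611 counts per cell in sham replicate 1, 547 against 443 in replicate 2, 418 against 332 in replicate 3 and 371 against 315 in replicate 4. The median percent of mitochondrial counts was lower in Mg2 than in Mg1 in each of these libraries, at 0.470% against 0.578%, 2.29% against 3.12%, 2.10% against 2.97% and 2.17% against 2.93%. It was also lower in the stroke libraries with at least 20 Mg2 cells, at 0.173% against 0.474% and 1.44% against 2.15% in day 2 replicates 1 and 4 and at 2.41% against 3.24% in day 14 replicate 4. Median counts per cell in these stroke libraries did not all go the way of sham. They were 663 in Mg2 against 748 in Mg1 and 678 against 673 in day 2 replicates 1 and 4, and 360 against 290 in day 14 replicate 4. The part of either measure in the differences of level was not tested.

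Mg6 was the subtype most like Mg2 in its immediate early genes. In sham replicates 2 and 3, the sham libraries with at least 20 Mg6 cells, the list summed to 23002 and 30183 CPM in Mg6 and to 23481 and 31329.5 CPM in Mg2. Across the 3 young libraries that held both subtypes at that size, the ratio of Mg2 to Mg6 ran from 1.02 to 1.07. The heat shock genes Dnajb1 and Hspa1a were higher in Mg2 in all 3 libraries. In sham replicates 2 and 3 and day 14 replicate 4, Dnajb1 stood at 356, 273 and 421 CPM in Mg2 and at 223, 166 and 199 CPM in Mg6. Hspa1a stood at 116, 67.5 and 115 CPM in Mg2 and at 65.0, 46.2 and 32.1 CPM in Mg6. Several other lists were lower in Mg2 than in Mg6 in all 3 libraries. The ratio ran from 0.281 to 0.450 for the interferon-response genes, from 0.405 to 0.566 for the chemokines, from 0.280 to 0.750 for the activated genes, from 0.484 to 0.773 for class I antigen presentation and from 0.575 to 0.718 for the NF-kB genes. The chemokine list summed to 5983 and 7059 CPM in Mg6 of sham replicates 2 and 3 and to 2426 and 3995 CPM in Mg2. Nfkbiz averaged 2922 CPM, Cd83 1081 CPM, Ccl3 2107 CPM and Ccl4 3185 CPM in Mg6 of those libraries, each above the Mg2 mean of all sham libraries given before. The Mg6 means cover sham replicates 2 and 3 alone, so these gaps are not matched by library. Mg6 also held fewer homeostatic transcripts, with Cx3cr1 at a mean of 2636 CPM.

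**Figure D2:**
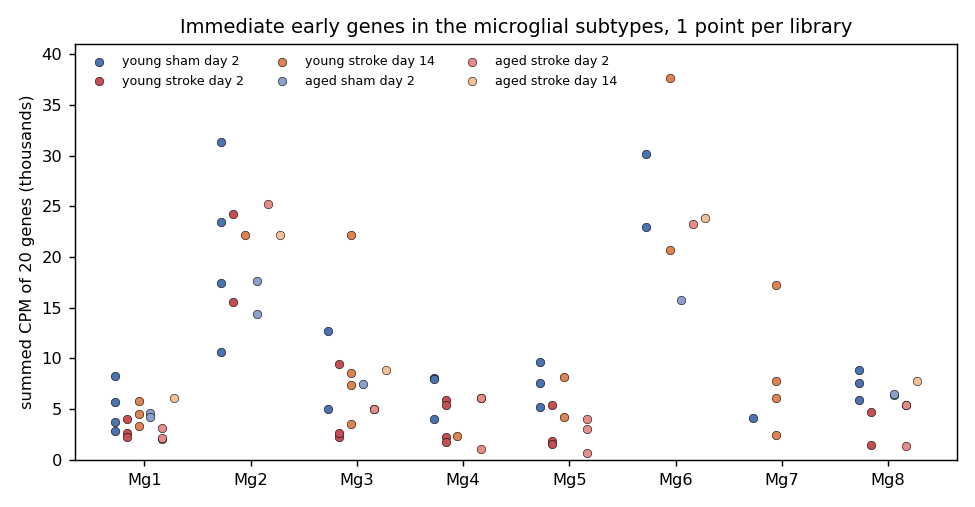
The summed CPM of 20 immediate early genes is plotted for each microglial subtype, with 1 point per library that held at least 20 cells of the subtype and colours for the groups. Mg2 and Mg6 share the upper range, and the Mg1 points of the young sham libraries lie between 2894 and 8318 CPM.

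Mg2 was a major subtype in sham brains and a minor one after stroke. Its share of microglia in young sham replicates 1 to 4 was 38.5% (919 of 2388 cells), 41.8% (1376 of 3293), 45.3% (949 of 2093) and 25.8% (799 of 3100). At day 2 of stroke it was 3.56% (22 of 618), 1.30% (9 of 693), 1.72% (1 of 58) and 14.1% (187 of 1324). At day 14 it was 2.10% (19 of 904), 0.836% (8 of 957), 1.90% (13 of 684) and 14.8% (388 of 2625). Every stroke library was below every sham library, and in each stroke group replicate 4 stood above the other 3. The day 2 replicate 3 value rests on 58 microglia and has an exact 95% binomial interval of 0.0436% to 9.24%, for counting error only.

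The mean share was 37.8% ± 8.52 in sham, 5.18% ± 6.04 at day 2 and 4.90% ± 6.61 at day 14 (SD, n = 4 libraries each). The fall was 32.7 percentage points at day 2 and 32.9 at day 14, each with an exact two-sided permutation p of 0.0286, the smallest that 4 against 4 libraries allow, and 0.0429 after Benjamini-Hochberg adjustment over the 3 young comparisons. Days 14 and 2 differed by -0.272 percentage points (exact permutation p = 0.857). The fall was present within both mitochondrial sets. In the low set the sham library stood at 38.5% against 1.30% to 3.56% at day 2 and 0.836% to 2.10% at day 14. In the high set, sham stood at 25.8% to 45.3% against 1.72% to 14.1% and 1.90% to 14.8%. Permuting the labels within these sets gave an exact p of 0.0333 for both falls, the smallest it can give, and an adjusted p of 0.05, which does not pass.

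**Figure D3:**
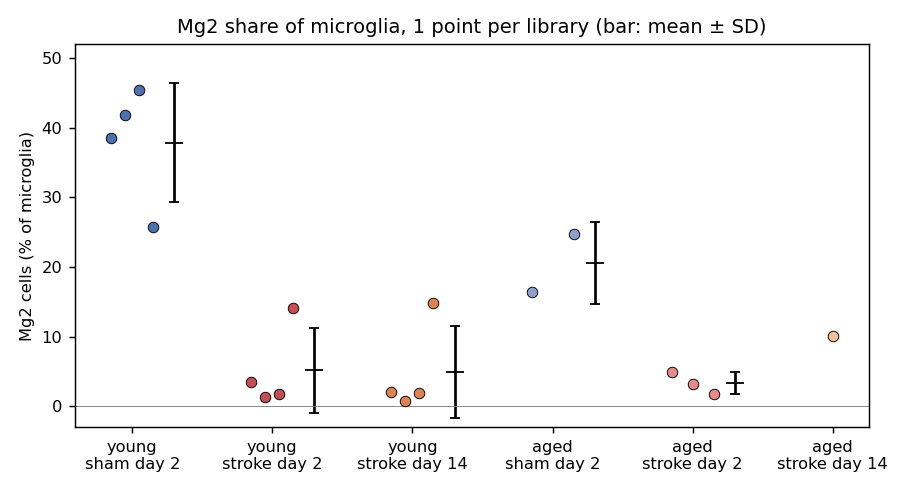
The share of microglia annotated as Mg2 is plotted in percent, with 1 point per library and bars for the mean ± SD of each group of more than 1 library. All 8 young stroke points, from 0.836% to 14.8%, lie below the lowest young sham point of 25.8%.

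Shares of subtypes sum to 100%, and the other subtypes changed with the same surgery. Mg1 had a mean share of 53.0% in sham, 11.04% at day 2 and 6.18% at day 14. Mg4 went from 1.06% in sham to 51.97% at day 2, Mg5 from 1.10% to 26.4%, and Mg3 from 0.795% in sham to 69.6% at day 14. Among Mg1 and Mg2 cells alone, the Mg2 part was 40.5%, 49.9%, 51.8% and 26.6% in sham. It was 24.7%, 4.52%, 100% (1 cell of 1) and 70.6% at day 2, and 70.4%, 6.20%, 26.5% and 71.3% at day 14. On this denominator, which was chosen after seeing the data, the stroke libraries spread to both sides of the sham libraries, and the differences were 7.77 percentage points at day 2 (exact permutation p = 0.743) and 1.43 at day 14 (p = 0.943, exact). The sign at day 2 rests on replicate 3 with its single cell, and without that library the difference was -8.91 percentage points (exact permutation p = 0.6).

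Sorted microglia were also a smaller part of the stroke libraries, at 68.7% to 81.5% of brain cells in sham, 1.68% to 29.5% at day 2 and 25.7% to 51.3% at day 14. The sort admits leukocytes with high CD45, so these shares depend on what entered the gates. As a share of all brain cells, Mg2 fell from a mean of 26.97% ± 4.39 in sham to 1.27% ± 1.94 at day 2 and 2.25% ± 3.55 at day 14 (n = 4 each, both exact permutation p = 0.0286).

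**Figure D4:**
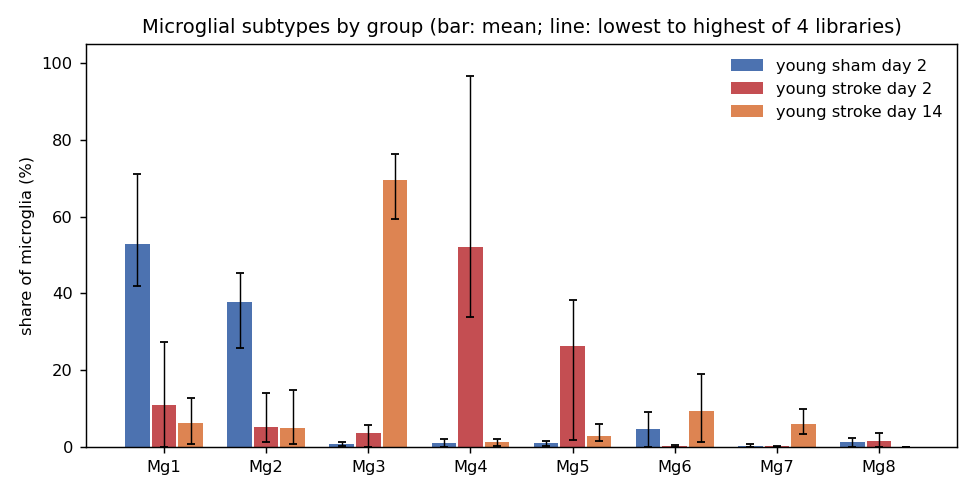
Bars give the mean share of microglia in percent for each of the 8 subtypes in the 3 young groups, and lines run from the lowest to the highest of 4 libraries. Mg1 and Mg2 make up most sham microglia, Mg4 and Mg5 most at day 2, and Mg3 most at day 14.

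In aged mice, too, Mg2 shares were lower in the stroke libraries than in the sham libraries. Mg2 made up 16.4% of microglia in the sham library of males and 24.8% in that of females, a mean of 20.6% ± 5.92 (n = 2). At day 2 of stroke it made up 4.91% in the male library (16 cells) and 3.24% and 1.76% in the female ones (31 and 3 cells), a mean of 3.31% ± 1.57 (n = 3). The day 14 female library held 10.1% (182 of 1804 cells). All 3 stroke libraries at day 2 were below both sham libraries, with a difference of -17.3 percentage points and an exact permutation p of 0.1, the smallest that 3 against 2 libraries allow. Whether the fall differed between the ages was not tested, since age went with sex and with separately made tables.

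Within the Mg2 cells found after stroke, few genes were called. The fit summed Mg2 counts per library and used the 7 young libraries with at least 20 Mg2 cells. These were 4 of sham, 2 of day 2 (replicate 1 with 22 cells and replicate 4 with 187) and 1 of day 14 (replicate 4 with 388 cells), whose spread is assumed to be like that of the others. The filter on low counts kept a gene that was high enough in 1 library, since the smallest group had 1. Every gene this fit called except Gpr84 was low in all sham libraries and was kept through stroke libraries. The upward direction of these calls is therefore partly set by the filter. Without the filter, 15 genes were called higher and 7 lower at day 2. At day 2, 9 of 7810 genes (0.115%) rose against sham and none fell by edgeR's quasi-likelihood test at an adjusted p under 0.05, with 854 genes at an unadjusted p under 0.05. At day 14, 3 genes (0.0384%) rose and none fell, with 191 at an unadjusted p under 0.05. Between day 14 and day 2, edgeR called 0 of 7810 genes (0.0%), with 566 at an unadjusted p under 0.05, and DESeq2 called 0. Single libraries decided the day 2 count, which was 124 without sham replicate 1, 2 without day 2 replicate 1 and 0 without day 2 replicate 4, and without sham replicate 1 the day 14 count was 7. With the mitochondrial set as a term, which was added after seeing the data, the counts were 59 and 6, and with only cells of at least 800 counts they were 3 and 0.

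Spp1, which encodes the secreted phosphoprotein osteopontin, had the largest fold change at both times. It stood at 1.41, 0.685, 0 and 2.19 CPM in the Mg2 cells of sham replicates 1 to 4, at 228 and 434 CPM at day 2 and at 135 CPM at day 14. Its log2 fold change was 7.76 ± 0.55 (SE) at day 2 and 6.43 ± 0.72 at day 14, with adjusted p of 2.6e-21 and 3e-10 by edgeR's quasi-likelihood test. All sham libraries together held 2.28 Spp1 counts, so the ratio is better given from pooled counts, as 474 (95% counting interval 127 to 3985) at day 2 and 153 (37.6 to 1343) at day 14. The groups do not overlap, but few of the 73.3 Spp1 counts of day 2 came from replicate 1, whose Mg2 cells held 15290 counts in all. In the same 3 stroke libraries Spp1 stood at 346, 497 and 114 CPM in Mg1, at 21672 and 39604 CPM in Mg4 of day 2 and at 4198, 6065 and 10433 CPM in monocyte-derived cells. Endothelial cells held it at 0 CPM in all 3.

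Lpl, the lipoprotein lipase of lipid-laden microglia, stood at 4.28, 6.996, 6.10 and 7.72 CPM in sham, at 58.6 and 89.9 CPM at day 2 and at 26.9 CPM at day 14. It rose at day 2 by 3.53 ± 0.73 on the log2 scale (adjusted p = 0.0054, edgeR). Gpr84, a receptor for medium-chain fatty acids, stood at 106, 70.4, 100.1 and 112 CPM in sham, at 396 and 351 CPM at day 2 and at 111 CPM at day 14. It rose at day 2 by 1.78 ± 0.39 (adjusted p = 0.013, edgeR). The 2 day 2 libraries lay above all sham libraries for both genes, and the day 14 library lay within the sham range for Gpr84. For Lpl this rests on little in day 2 replicate 1. Its Mg2 cells held 15290 counts in all, so 58.6 CPM stands for a fraction of a count. Endothelial cells of these 3 libraries held Lpl at 0 CPM and Gpr84 at no more than 1.5 CPM.

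For Cst7 and Ifi27l2a, 1 day 2 library carried the call. Cst7, the protease inhibitor cystatin F, stood at 5.31 to 9.61 CPM in sham and at 0 and 151 CPM at day 2, with a log2 fold change of 3.75 ± 0.59 (adjusted p = 2.2e-05, edgeR). Ifi27l2a, an interferon-induced gene, stood at 1.76 to 11.2 CPM in sham, at 0 and 92.3 CPM at day 2 and at 108 CPM at day 14, with log2 fold changes of 3.37 ± 0.67 and 3.93 ± 0.66 (edgeR). For both genes the day 2 library of 22 cells was at 0 and the library of 187 cells set the call. Without that larger library the log2 fold change was -4.88 for Cst7 and -4.63 for Ifi27l2a, and the median over all genes tested was -1.02. With 15290 Mg2 counts in all, the library of 22 cells would hold a fraction of a count of either gene at the sham levels. Its 0 therefore does not show a fall.

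Ifitm3, an interferon-induced membrane protein that restricts viral entry, stood at 21.5 CPM in sham replicate 1 and 0 in the other 3, at 123 and 106 CPM at day 2 and at 66.8 CPM at day 14. Its log2 fold change at day 2 was 4.06 ± 0.72 (adjusted p = 0.00033, edgeR). The 2 day 2 libraries of this fit held 18.9 Ifitm3 counts together. Few of them were in replicate 1, whose Mg2 cells held 15290 counts in all. Clec7a, the beta-glucan receptor Dectin-1, rose at day 14 alone among the calls, from 6.47, 15.97, 12.4 and 17.0 CPM in sham to 194 CPM, by 3.97 ± 0.53 (adjusted p = 1.4e-07, edgeR). At day 2 it stood at 0 and 14.2 CPM, and its difference between the 2 times did not pass. The remaining day 2 calls, named after their values were seen, were Fxyd5, Lgals1 and Cd72, at 5.23 ± 0.85, 4.76 ± 1.08 and 4.25 ± 0.81 on the log2 scale. Lgals1 and Cd72 were at 0 in the day 2 library of 22 cells.

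Most of these genes were far higher in another brain cell type when each type was pooled over all young libraries. Over the young libraries, another cell type held Spp1 at 177 times, Lgals1 at 280 times, Fxyd5 at 225 times, Ifitm3 at 202 times, Ifi27l2a at 126 times, Clec7a at 51.8 times and Cd72 at 20.0 times the Mg2 level. For Cst7 the factor was 6.65, for Lpl 3.71 and for Gpr84 0.564. Of the 4690 Mg2 cells pooled, 4043 came from sham, so each factor sets a mostly sham Mg2 level beside cells of all groups. For Spp1, the gap to monocyte-derived cells within the stroke libraries given above was smaller. The part of RNA from other cells in these calls was not tested.

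**Figure D5:**
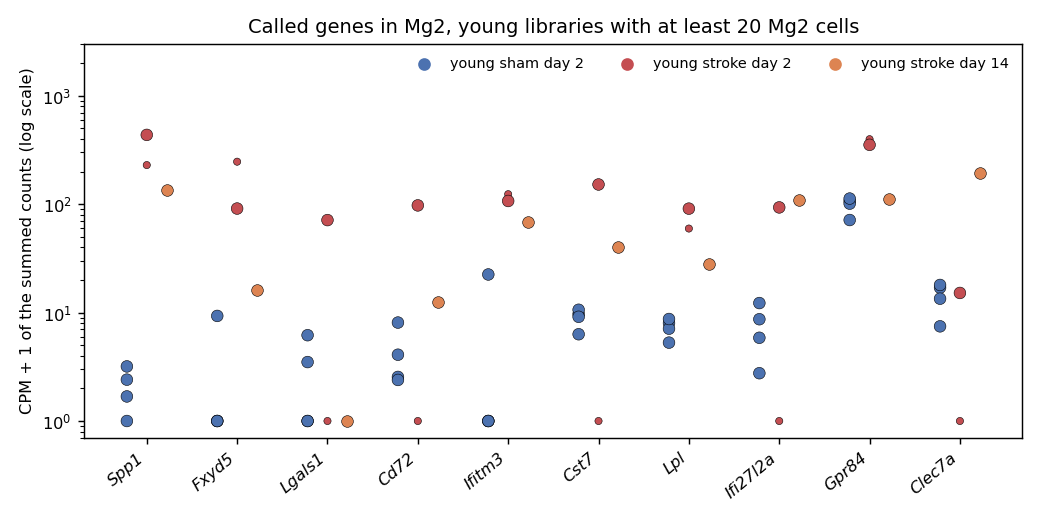
The 10 genes called in Mg2 after stroke are plotted as CPM + 1 on a log axis, with 1 point per young library of at least 20 Mg2 cells and a smaller point for the library of 22 cells. Spp1, Lpl and Gpr84 are high in both day 2 libraries, while Cst7, Ifi27l2a, Cd72, Lgals1 and Clec7a are at 0 CPM in the smaller one. The Lpl point of that smaller library stands for a fraction of a count.

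Of the 9 genes called at day 2, 5 belonged to a gene list, and Gpr84, Fxyd5, Lgals1 and Cd72 to none. The called list members all passed the filter on low counts through stroke libraries. The counts and medians of their lists are therefore partly set by that filter. Beside the 0.115% and 0.0384% of all genes called at the 2 times, 3 of 12 activated genes tested rose at day 2 (Spp1, Cst7 and Lpl) and 2 at day 14 (Spp1 and Clec7a), and the list's median log2 fold change was 0.78 and 0.62 against -0.18 and -0.05 over all genes tested. Of 7 interferon-response genes, 2 were called at day 2 (Ifitm3 and Ifi27l2a) and 1 at day 14 (Ifi27l2a), with medians of 1.26 and 1.19. None of the 16 homeostatic genes was called at either time, with medians of 0.00 and -0.08. Nor was any of the 19 immediate early genes, with medians of -0.22 and 0.16. Fos had log2 fold changes of -0.21 ± 0.53 and 0.02 ± 0.67, Egr1 of -0.48 ± 0.50 and 0.35 ± 0.60, and Jun of -0.61 ± 0.53 and 0.31 ± 0.65 (SE). Those intervals are wide, and on simulated data of these library sizes the fit recovered 6.67% of 2-fold and 71.4% of 8-fold changes at day 2. The stroke cells compared here are those that still carried the Mg2 label, and the subtypes were made from these same genes. Cells whose homeostatic or immediate early levels changed could carry another label. The levels within Mg2 therefore cannot show how these genes responded in microglia as a whole.

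In this fit of libraries with at least 20 Mg2 cells, the lists of NF-kB genes, chemokines and lineage transcription factors had no called member either. Their medians were 0.22, 0.72 and -0.68 at day 2 and 0.65, 0.59 and 0.00 at day 14.

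A fit with a lower limit of 8 Mg2 cells, chosen after seeing the data, admitted 3 day 2 and 4 day 14 libraries. It tested 4214 genes and called 18 (0.427%) at day 2, of which 9 were higher and 9 lower, and 8 (0.19%) at day 14, of which 5 were higher and 3 lower. Of the 9 genes called at day 2 before, 6 were called again and Cst7, Lgals1 and Cd72 were not, while the 3 genes called at day 14 before were called again. Apoe, the lipid carrier, joined them with a log2 fold change of 3.05 ± 0.49 (adjusted p = 9.9e-07, edgeR). It stood at 695, 799, 416 and 604 CPM in sham and at 5881, 3887, 13738 and 2845 CPM in the 4 day 14 libraries, which do not overlap with sham. In day 14 replicate 4 it reached 41607 CPM in border macrophages, 38649 CPM in monocyte-derived cells and 827 CPM in endothelial cells. Klf4, a zinc finger factor of the immediate early list, fell at day 2 by 2.33 ± 0.60 (adjusted p = 0.038, edgeR), from 139, 269, 527 and 104 CPM in sham to 0, 0 and 64.6 CPM. The 2 libraries at 0 held 22 and 9 Mg2 cells. Tnf, of the NF-kB list, was called at day 2 in this fit with a log2 fold change of 1.54 ± 0.41 (adjusted p = 0.045, edgeR), at 129.9, 68.5, 107 and 49.5 CPM in sham and 116, 0 and 351 CPM at day 2. The groups overlap, and in the fit with at least 20 cells its adjusted p was 0.059 (edgeR).

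In aged mice the immediate early list stood in the range of the young. It summed to 14343 CPM for male and 17677 CPM for female sham, to 25268 CPM in the first female day 2 library and to 22156 CPM at day 14, and in Mg1 of the same 4 libraries to 4275, 4587, 3158 and 6075 CPM. The planned limit of 20 cells left 1 aged stroke library at day 2, so that fit could not be made as planned. With a limit of 16 cells, chosen after seeing the data, 2 libraries a group and 781 genes, edgeR called 0, with 34 at an unadjusted p under 0.05 and a smallest adjusted p of 0.254, and DESeq2 called 1. Spp1 stood at 0 and 4.55 CPM in Mg2 of the male and female aged sham libraries, at 128 and 1018 CPM in the first male and female day 2 libraries and at 20.3 CPM at day 14.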

How the data were processed

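Single brain cells were profiled by Drop-seq, which counts transcripts by cell barcode. The authors deposited expected counts per gene and cell, 1 table per library, with 19704 genes for young and 27514 for aged libraries. The step that left the counts fractional is not stated, and the aligner and the counter are not given in the sources used here. Seurat and the genome build mm10 are named per the submitters' processing notes. The deposited metadata give a total count per cell, which equals the column sums, a percent of mitochondrial counts and the authors' cell type and subtype codes, which were used as they stand. All deposited cells were kept. Scrublet (scanpy 1.11.5) marked 0% to 0.225% of cells per library and no Mg2 cell, a share so low that the caller has not worked, so doublets were in effect not removed.

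Cells of a library are not replicates. Counts were summed over the Mg2 cells of each library, rounded to whole numbers and tested by quasi-likelihood in edgeR 4.0.16 (R 4.3.3, TMM scaling, filterByExpr on group), with the 3 young groups in 1 fit, libraries of at least 20 Mg2 cells, two-sided tests, Benjamini-Hochberg adjustment over all genes tested and a call at an adjusted p under 0.05. A standard error is the fold change divided by the root of its F value. Shares of microglia were compared by exact two-sided permutation tests over libraries (scipy 1.17.1). The labels do not say that libraries of a group came from separate surgeries, so p-values measure the spread between these libraries. Marker ratios use CPM + 10 within a library against all other microglia pooled, for genes whose average level in Mg2 reached 50 CPM. The fit was tested on simulated data of 7242 genes, where it made 2 false calls of 82 at day 2. The simulation drew every library from the mean sham profile, with no difference between the mitochondrial sets. It therefore does not cover how far the real calls moved when 1 library was left out.

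Named genes were 15 of the highest and 10 of the lowest marker ratio of the same sign in every library, called genes with at least 20 CPM and no overlap between the groups (predicted, mitochondrial, ribosomal protein, haemoglobin and immune receptor genes, and genes that another type held at over 10 times the Mg2 level, excluded), and up to 4 called members of each gene list per comparison. The excess in other cell types, taken over all young libraries pooled, keeps Spp1, Ifitm3, Ifi27l2a and Clec7a out of all but the last part. The members and the lists were chosen with earlier results of these data known. Alternatives were DESeq2 1.42.0, its size factors, no filter on low counts, library size alone, only the compared groups, other limits on cells and counts, counts rounded up, a replicate block and each library left out in turn. Promoter windows are those of RefSeq. Blood libraries were not used.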

Additional observations from a re-analysis of the deposited data

Results flagged for a closer look

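Of 52 groups of 4 to 10 values that were tested for a single value apart from the rest by Dixon's criterion, 5 had one, where chance alone gives about 1 in 20. The Mg2 share of microglia in day 14 replicate 4, 14.8%, stood apart from the 0.836% to 2.10% of the other 3 libraries. The median percent of mitochondrial counts in Mg2 cells was 0.470% in sham replicate 1, below the other sham libraries, and 1.44% in day 2 replicate 4, above the other day 2 libraries. The summed level of 12 glycolysis and hypoxia genes in Mg2 of sham replicate 1 was 1082 CPM, apart from the other sham libraries. Junb in Mg2 of sham replicate 4, at 753 CPM, was below the 1404 to 1498 CPM of the other 3. Day 2 replicate 4 and day 14 replicate 4 supplied most Mg2 cells of their groups, with 187 of 219 and 388 of 428.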

How the results depend on the processing

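The falls in Mg2 share at day 2 and day 14 kept their direction and an adjusted p of 0.0429 with each library left out (30.2 to 36.7 and 30.4 to 37.0 percentage points), with all brain cells as denominator and with cells of at least 800 counts. Among Mg1 and Mg2 cells alone the Mg2 part was higher than in sham by 7.77 and 1.43 percentage points, and the day 2 difference was -8.91 without replicate 3, whose 100% is 1 cell. Permuted within the mitochondrial sets (these settings were added after seeing the data), the same -32.7 and -32.9 percentage points had an adjusted p of 0.05. In edgeR fits of cells per subtype the log2 change was -2.80 at day 2 (adjusted p = 0.0296), -2.93 at day 14 (0.0171) and -2.60 in aged mice (0.00698).

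Whether the replicate numbers pair the libraries could not be settled. The same-number correlations of Mg2 levels, taken as deviations from the group mean and possible for only 2 numbers, were 0.06 and -0.01. With 2 day 2 libraries these deviations mirror each other, so the correlations cannot decide on pairing. Replicate 1 was in the low mitochondrial set and replicates 3 and 4 in the high set in all 3 young groups. Replicate 2 was in the high set in sham alone. With the number as a replicate block, sign flips of the shares (-32.7 and -32.9) gave an exact p of 0.125, the smallest that 4 pairs allow, and 0.188 adjusted, while the edgeR fits of cells per subtype with the block gave -3.82 (adjusted p = 0.0182) and -4.11 (0.00864). The edgeR fit with the block called 1 gene at day 2 and 0 at day 14, with 1 and 0 list members.

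Counts of called genes against the 9 at day 2 and 3 at day 14 moved with most choices, and the cause was not tested. At day 2 they were 5 with DESeq2, 12 with its size factors, 1 without cells above 3 times the median count, 3 with cells of at least 800 counts, 20 with counts rounded up, 2 with libraries of at least 50 Mg2 cells, 18 with at least 8, 30 with at least 8 and the mitochondrial term, 59 with that term alone, 22 without a filter, 5 with only the compared groups, and 0 to 124 with 1 library left out. At day 14 they were 0 with cells of at least 800 counts, 8 with at least 8 cells, 11 with that and the mitochondrial term, 6 with the term alone, 6 without a filter and 3 to 7 with 1 sham library left out. Day 14 replicate 4 could not be left out. Between the times they were 2 with the mitochondrial term under either cell limit, 1 without a filter and 2 with only the compared groups. Called list members, 5 and 3 at first, were 3, 1, 3, 2, 9, 11, 9 and 3 at day 2 with DESeq2, without high-count cells, with 800 counts, with 50 cells, with 8 cells and the term, with the term, without a filter and with only the compared groups, and 0 to 20 with 1 library left out. At day 14 they were 0, 6, 7, 5 and 5 with 800 counts, 8 cells, 8 cells and the term, the term and no filter, and 3 to 5 with 1 sham library left out. Between the times they were 2 under both fits with the term, 1 without a filter and 1 with only the compared groups. Library size alone moved the median of all genes for day 14 against day 2 from 0.14 to 0.01. In aged mice DESeq2 called 1.

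Spp1 was called at day 2 in 19 of 20 alternatives (log2 6.15 to 8.42) and at day 14 in 16 of 18 (2.92 to 8.31), Lpl in 14 of 20 and Gpr84 in 12 of 20. With 1 library left out, the day 2 log2 fold change ran from -4.88 to 4.18 for Cst7 and from -4.63 to 3.82 for Ifi27l2a. Both negative values came without day 2 replicate 4, when the day 2 library left held no count of either gene. The 22 and 9 cells of the small day 2 libraries limit what could be detected. The alternatives are not independent of each other. Leaving out cells marked by Scrublet removed no Mg2 cell and repeated the main fit. At day 2, the limit of at least 50 Mg2 cells gave the same fit as leaving out replicate 1.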

Other observations

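Class I antigen presentation genes were also compared between Mg2 and Mg1. Of 7 such genes in the young sham libraries, 2 were higher in Mg2 than in Mg1 in 4 of 4 and 2 in none, with a median ratio of 0.941, beside 11.5% of all genes higher in 4 of 4 and 10.8% in none. The 2 higher ones, H2-K1 and H2-D1, the classical class I molecules, stood at 892 ± 247 against 510.1 ± 86.6 CPM and 1040.2 ± 336 against 751 ± 113 CPM (SD, n = 4), whereas their partner B2m was lower in Mg2 in 4 of 4, at 3216 ± 447 against 3473 ± 477 CPM. Mg6 had means of 1524 CPM for H2-K1 and 1719 CPM for H2-D1. Beside the same shares of all genes, 0 of 12 lysosomal genes were higher in Mg2 in 4 of 4 libraries and 6 were lower in each.

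In the fit with at least 8 Mg2 cells, Ddit4, a stress- and glucocorticoid-induced inhibitor of mTORC1, fell at day 14 by 2.72 ± 0.62 on the log2 scale (adjusted p = 0.0077, edgeR), from 265, 303, 87.9 and 199 CPM in sham to 0, 172, 0 and 38.7 CPM. The groups overlap, and the day 14 libraries at 0 held 19 and 13 Mg2 cells.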
